A study of Mus musculus with 6 samples.

Results

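The 3073 peaks described here come from a deposited list of methylation peaks of mouse chondrocytes. They lay inside the longest genes, the protein-coding genes over 500 kb. A peak was a member when its midpoint fell in such a gene body. The members make up 3.66% of the 83968 peaks on chromosomes (84111 peaks in the whole list) and fell in 172 genes, all of the 172 on sequence that the list covers. Primary chondrocytes were cultured from knee articular cartilage on postnatal days 3 to 5, and their methylated DNA was pulled down with MBD2, which binds methylated CpG sites, before sequencing (MBD-seq). There were 3 control samples, labelled Dnmt1 flox with no Cre named, and 3 cKO samples, labelled Prx1-Cre;Dnmt1 flox/flox. Prx1-Cre is active in limb mesenchyme and there removes Dnmt1, the enzyme that copies CpG methylation onto newly made DNA. The deposited list is labelled Dnmt1-mediated DNA methylation region, and how the peaks were chosen for that label is not given in the sources used here. It was called on 3 merged datasets, and its peak names do not say which samples these were. It gives 1 value per peak and none per sample, so control and cKO could not be compared, no value has a spread between animals, and the labelled cell type could not be checked against expression markers. The 95% intervals below cover counting error only, and neighbouring peaks are not independent.

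Very long genes are mostly long because of their introns. Many encode neuronal adhesion molecules, receptors and channels, and several lie in sequence poor in genes and CpG sites. Methylation of CpG sites is usual across transcribed gene bodies, whereas the CpG-rich starts of genes are usually free of it. MBD capture detects stretches with several methylated CpG sites, so a region without a peak can be unmethylated or simply poor in CpG.

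The start sequences are shown first, since they hold the few gene starts that a peak reached. RefSeq (GRCm38.p6) gave 213 start windows, each the 250 bases before a transcription start, for 136 of the genes. A peak touched 4 of them (1.88%, 95% exact interval 0.514% to 4.74%), against 2.62% of 15401 windows of all covered protein-coding genes. All 4 were internal starts, from 59.25 to 599.8 kb into the gene. Counting only the window listed first for each of the 136 genes, which need not lie at the gene's 5' end, 3 were touched. The 4 touched windows are printed here with each CG dinucleotide in capitals, the only motif searched and the same on both strands. The start window of Camta1, a calmodulin-binding transcription activator and one of the genes with most peaks, follows for comparison. No peak touched it.
Etl4, chr2:20509797-20510046, plus strand: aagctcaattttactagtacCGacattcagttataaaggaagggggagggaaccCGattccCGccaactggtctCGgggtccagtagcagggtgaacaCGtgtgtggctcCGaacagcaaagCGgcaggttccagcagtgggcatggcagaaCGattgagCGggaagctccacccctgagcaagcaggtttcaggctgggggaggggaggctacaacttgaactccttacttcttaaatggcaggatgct
Pde4b, chr4:102421305-102421554, plus strand: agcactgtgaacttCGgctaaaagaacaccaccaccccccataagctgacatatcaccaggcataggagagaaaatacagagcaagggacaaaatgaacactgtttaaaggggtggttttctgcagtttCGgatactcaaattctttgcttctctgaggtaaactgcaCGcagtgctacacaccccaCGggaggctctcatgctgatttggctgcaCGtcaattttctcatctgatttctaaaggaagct
Pde1c, chr6:56369635-56369884, minus strand: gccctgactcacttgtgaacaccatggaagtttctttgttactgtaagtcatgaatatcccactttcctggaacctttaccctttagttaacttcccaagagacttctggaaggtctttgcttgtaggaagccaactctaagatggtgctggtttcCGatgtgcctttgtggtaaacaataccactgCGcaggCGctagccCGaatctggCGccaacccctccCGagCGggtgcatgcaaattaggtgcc
Kalrn, chr16:34514028-34514277, minus strand: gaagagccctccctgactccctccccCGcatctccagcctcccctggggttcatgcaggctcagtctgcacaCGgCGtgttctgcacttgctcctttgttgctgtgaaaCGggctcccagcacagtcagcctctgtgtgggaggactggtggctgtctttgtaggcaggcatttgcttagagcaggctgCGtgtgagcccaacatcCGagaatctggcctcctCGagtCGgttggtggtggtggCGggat
Camta1, chr4:151861769-151862018, minus strand: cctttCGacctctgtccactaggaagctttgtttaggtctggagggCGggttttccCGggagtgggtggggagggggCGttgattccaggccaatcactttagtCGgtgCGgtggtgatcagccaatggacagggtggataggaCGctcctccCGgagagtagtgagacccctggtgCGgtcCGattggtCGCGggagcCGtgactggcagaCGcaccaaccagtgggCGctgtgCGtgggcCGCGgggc
The touched windows held between 5 and 9 CG dinucleotides, with a median of 8. The Camta1 window held 18. The 209 untouched windows had a median of 10 and reached 44, and 108 of them had more than any touched window. Over the windows of all protein-coding genes the median was 11, and 94.4% had at least 1 CG. The peak at the internal start of Etl4, 590 bp wide, had a fold of 31.5 over the caller's background. Those at Pde1c, a calcium-dependent phosphodiesterase, and at Pde4b, a cyclic AMP phosphodiesterase, had folds of 18.6 and 16.7. At Kalrn, a guanine nucleotide exchange factor, the fold was 6.10 over a width of 94 bp.

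A few peaks lay over microRNA genes inside long genes. Of 21 microRNA hairpins inside these genes, 2 lay wholly within a peak, and the share over all 733 hairpins on covered sequence was 11.5%. The mature forms of both are printed because a peak covered them, from RefSeq (GRCm38.p6), with the seed (bases 2 to 8) in capitals.
mmu-miR-218-5p: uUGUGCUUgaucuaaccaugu
mmu-miR-218-2-3p: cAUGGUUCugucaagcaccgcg
mmu-miR-582-5p: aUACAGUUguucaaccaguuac
mmu-miR-582-3p: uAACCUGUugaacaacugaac
The 4 seeds differ from one another. Mir218-2, at chr11:35616816-35616925, lies in Slit3, which encodes a secreted guidance ligand of the Robo receptors. Its peak, 531 bp wide, had a fold of 29.6 and lay 495 kb from the Slit3 start. Mir582, at chr13:109324744-109324824, lies in Pde4d, another cyclic AMP phosphodiesterase. Its peak, 504 bp wide, had a fold of 29.5, with 268 reads against a raised background of 8.12, and lay 671 kb from the Pde4d start. Both folds were above the upper quartile of long-gene peaks, 19.0.

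Long genes were sparse in peaks. Together they held 2.13 peaks per 100 kb (95% exact Poisson interval 2.06 to 2.21), against 6.40 in the rest of the protein-coding gene bodies, 3.27 outside every gene and 4.30 over all covered chromosomes. They took up 7.38% of the covered length and 3.66% of the peaks. Every one of the 172 genes held at least 1 peak, where 64.3% of all covered protein-coding genes did, but a body of this length would hold several peaks at almost any density. A density above that of all protein-coding genes together, 5.62 peaks per 100 kb, was found in 13 of 172 long genes (7.56%), against 44.1% of all protein-coding genes. The 3 genes just above 500 kb were Edil3 (0.598 peaks per 100 kb), Samd12 (0.596) and Stpg2 (2.97). The 3 just below were Dnm3 (2.22), Lrrc7 (1.41) and Cacna1e (3.04).

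Peaks came in 2 kinds, set apart by the background that the caller used. For 63063 peaks of the list this background was at its lowest value, 6.37 reads, and for the others it was higher. In such a caller the lowest value is a genome average, and a higher one means that the reads used as background were locally more numerous. The kind at the lowest background thinned out with gene length far more than the other. In genes of 10 to 25 kb the peaks at the lowest background numbered 9.26 per 100 kb. The figure fell to 3.16 in genes of 200 to 500 kb, 1.71 in genes of 500 to 1000 kb and 0.938 in those over 1000 kb. These are pooled values. The 12 densest long gene models, all under 1000 kb, held 444 such peaks in 4.37% of the long-gene length. Peaks above the lowest background stayed between 0.966 and 0.712 per 100 kb over the same span, and 1.69 in genes up to 10 kb. The share at the lowest background was therefore 65.2% in long genes (2003 of 3073; 95% exact interval 63.5% to 66.9%), against 86.6% in other protein-coding bodies, 62.1% outside genes and 75% over all chromosome peaks. No test was made of these differences, since the list has no replicates, and CpG content was not measured along the genes.

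**Figure D1:**
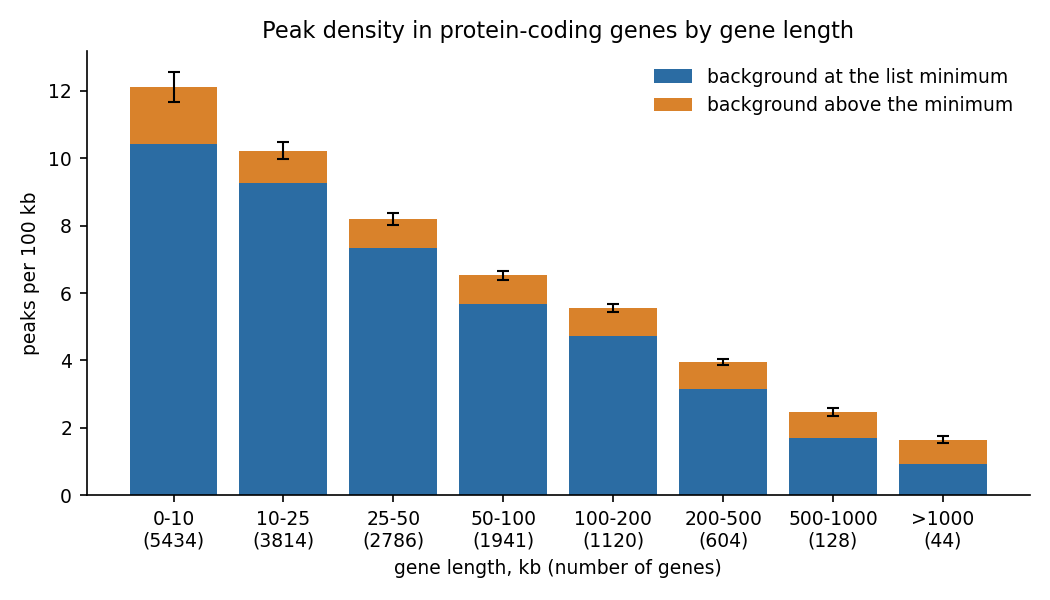
Peaks per 100 kb (vertical axis) in protein-coding genes grouped by length in kb (horizontal axis, number of genes in parentheses), with peaks at the lowest background in blue and peaks above it in orange; bars on top are 95% exact Poisson intervals of the sum. The blue part falls from 9.26 at 10 to 25 kb to 0.938 over 1000 kb, while the orange part goes from 0.966 to 0.712.

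The median fold of the peaks was lower than elsewhere, but their pileup was not lower than in other protein-coding bodies. The fold was 11.7 (95% interval 11.3 to 12.1; quartiles 7.64 and 19.0), against 13.9 in other protein-coding bodies and 12.5 outside genes. Median pileup was 136 reads, against 114 and 149, and median −log10 q was 108, against 94.1 and 122. The median width was 420 bp, against 391 and 446 bp. At the lowest background the median fold was 12.3 in long genes and 13.7 in other protein-coding bodies. Above it the gap was wider, 10.4 against 15.6, and the median of those raised backgrounds was 25.5 against 15.1 reads. Median pileup was 90 against 100 reads at the lowest background and 337 against 325 above it. Folds in long genes ran from 1.98 to 49.0, and the highest ranked 197th in the list.

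The 5 peaks with the highest fold were all at the lowest background. The first, with a fold of 49.0, lay at chr12:116597013-116597644 in Ptprn2, a phosphatase-like protein of secretory granules, 112 kb from the gene start. It had a pileup of 360 reads. The next were in Astn2, a neuronal migration protein (fold 47.2), Mast4, a microtubule-associated serine/threonine kinase (46.4), Dscam, an adhesion molecule of the immunoglobulin family (45.2), and Camta1 (44.4). The Mast4 peak lay 4.39 kb from the 3' end of the gene. Among the widest peaks, 4 measured from 2237 to 2643 bp and had low folds, from 3.73 to 5.02, with raised backgrounds, from 87.3 to 157 reads. They lay in Fgf12, an intracellular fibroblast growth factor homologue, Ptprt, a receptor tyrosine phosphatase, Tmem132d and Pde1c. The one in Fgf12, at chr16:28292864-28295506, rose to 442 reads against a background of 87.3.

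Between genes the density varied from 0.396 to 12.1 peaks per 100 kb, 30.7-fold. The median gene had 14 peaks and 1.73 peaks per 100 kb (quartiles 1.17 and 2.63). Under 1 peak per 100 kb were 28 genes, between 1 and 2 were 76, between 2 and 5 were 54 and above 5 were 14. Within the long genes density was only weakly related to length (Spearman correlation -0.10, Pearson r = -0.16 over 172 genes, a description across genes that share a genome and one peak list). The longest of all, Ptprd (2271 kb), a receptor tyrosine phosphatase of synapses, had 22 peaks or 0.969 per 100 kb. Cntnap2, a neuronal adhesion protein of 2241 kb, had 24 peaks or 1.07 per 100 kb.

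**Figure D2:**
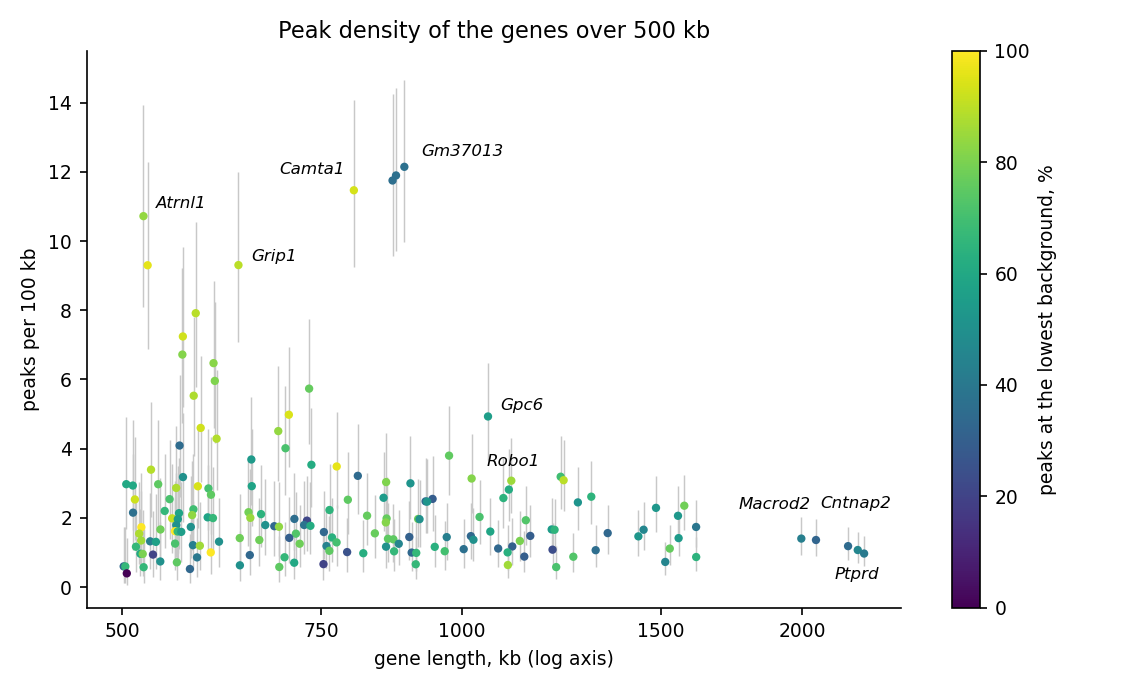
Peaks per 100 kb (vertical axis) against gene length in kb (horizontal log axis) for the 172 genes over 500 kb; points are genes coloured by the percentage of their peaks at the lowest background, and grey lines are 95% exact Poisson intervals. The quartiles are 1.17 and 2.63 peaks per 100 kb, and the longest genes, Ptprd and Cntnap2, lie at 0.969 and 1.07.

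At the top stood 12 gene models at 10 separate loci. The first 3, Gm37013 (chr18:36952648-37841873, 108 peaks, 12.1 per 100 kb), Gm38666 (104 peaks) and Gm38667 (102 peaks), are overlapping models on chromosome 18 that span clustered protocadherin genes. Only 37.0% of the Gm37013 peaks were at the lowest background. Camta1 (chr4:151059523-151861768) followed with 92 peaks, 11.5 per 100 kb (95% exact Poisson interval 9.24 to 14.1), of which 86 were at the lowest background. Next came Atrnl1, an attractin-like membrane protein (56 peaks, 10.7 per 100 kb), Grip1, a scaffold that binds glutamate receptors (59 peaks, 9.31), and St6galnac3, a sialyltransferase (49 peaks, 9.30). Their intervals overlap that of Camta1, so the order among them is not resolved by counting error. The list was completed by Csmd2, a membrane protein with CUB and sushi domains (7.92 per 100 kb), Smyd3, a lysine methyltransferase (7.24), Enox1, a cell surface oxidase (6.72), Mast4 (6.47) and Kalrn (5.96). Leaving out the chromosome 18 models, 88.6% of the 456 peaks in the other 9 genes were at the lowest background.

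The 12 sparsest genes held 52 peaks in all, from 2 to 7 each. Car10, a carbonic anhydrase-related protein, had 2 peaks, 0.396 per 100 kb (95% exact Poisson interval 0.0480 to 1.43), both above the lowest background and the first of them 322 kb from the gene start. Rabgap1l, a Rab GTPase-activating protein, had 3 peaks (0.522 per 100 kb), as did Ptprk, a receptor tyrosine phosphatase (0.574). Csmd3, a relative of Csmd2, had 7 peaks in 1212 kb (0.578 per 100 kb), with 701 kb as its longest stretch without a peak, gene ends counted as limits. Csmd2 itself had 46, and the intervals of the pair do not overlap (5.79 to 10.6 against 0.232 to 1.19). Plcb1 (phospholipase C beta, 0.580), Samd12 and Edil3 (0.598, an integrin-binding matrix protein) came next, then Lama2, the laminin alpha 2 chain (0.629), Ctnna2, a neuronal catenin (0.637), and Dpp6, a potassium channel partner (0.659). Dgkb, a diacylglycerol kinase (0.663), and Mgat4c, a glycosyltransferase (0.704), closed the group. Their intervals all overlap, so these genes cannot be ordered. Of the 52 peaks 57.7% were at the lowest background. Median folds differed little between the extremes, 12.1 in the densest and 11.1 in the sparsest 12.

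**Figure D3:**
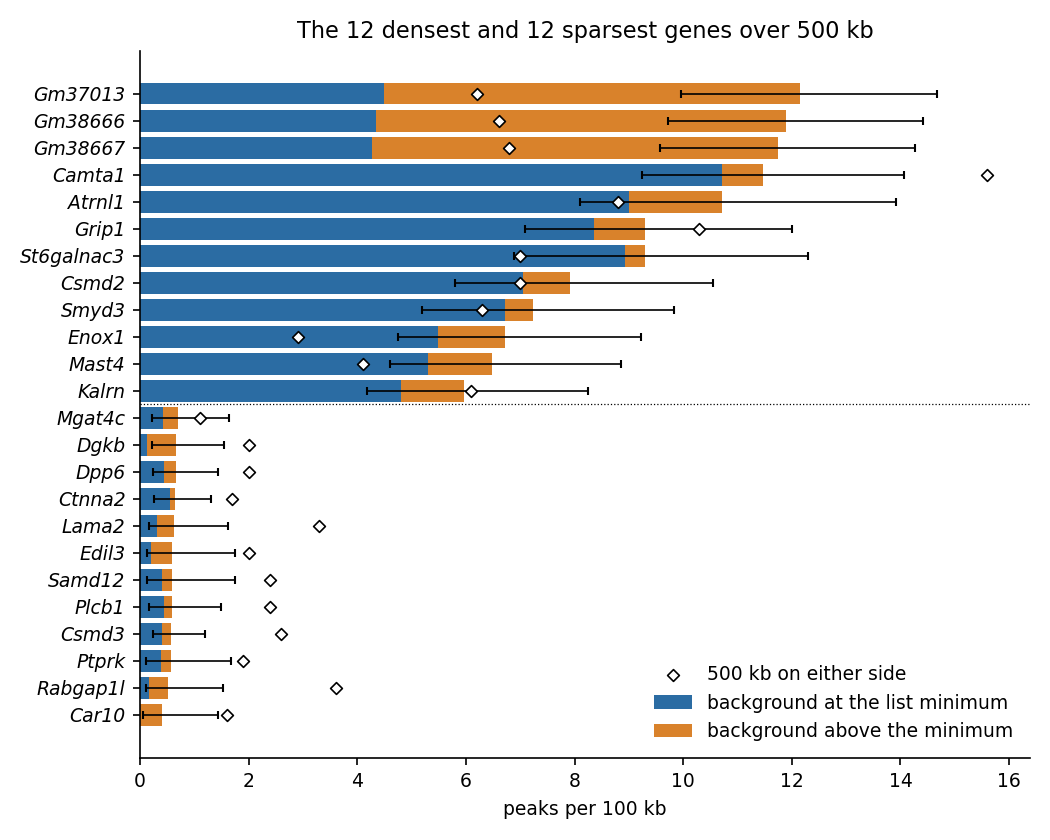
Peaks per 100 kb (horizontal axis) in the 12 densest and 12 sparsest genes over 500 kb (rows), split into peaks at the lowest background (blue) and above it (orange), with 95% exact Poisson intervals of the sum and diamonds for the 500 kb on either side of the gene. Blue dominates in the dense genes from Camta1 to Kalrn, orange in the 3 chromosome 18 models, and all 12 sparse genes lie left of their diamond.

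Each gene was set beside its own surroundings, the 500 kb on either side. The body was less dense than these flanks in 147 of 172 long genes (85.5%), while the same held for 57.9% of genes of 100 to 500 kb. The median ratio of body to flank was 0.542 in long genes and 0.858 in the shorter set. Body and flank densities rose together (Spearman correlation 0.55, Pearson r = 0.61 over 172 genes, a description of neighbouring sequence in one list). Cntnap2 was far below its surroundings, at 1.07 against 7.40 peaks per 100 kb. So was Lrba, a vesicle trafficking protein, at 0.715 against 5.20. Enox1 was above, at 6.72 against 2.90. Of the 12 densest genes 9 exceeded their flanks and of the 12 sparsest none did, but these had been picked by body density. The 9 include the chromosome 18 models, which overlap at the same locus and are counted separately here and among the 172. Camta1 was not among the 9, since its flanks held 15.6 peaks per 100 kb. Sequence shared with another gene was richer in peaks than the remainder. The 5.00% of long-gene sequence covered by another annotated gene of any type held 4.62 peaks per 100 kb, against 2.002 elsewhere. Other protein-coding genes inside the long ones held 7.79, and 44.7% of those 114 peaks were at the lowest background. No value was computed without the chromosome 18 models, which span clustered protocadherin genes.

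Along the genes, peaks gathered toward the 3' end. Each gene was divided into 10 segments of equal length. Position was read from the start in 136 genes whose strand RefSeq gave and that lay in no longer long gene (2336 peaks). The first segment held 200 peaks (8.56%), the sixth 185 (7.92%) and the last 429 (18.4%; 95% exact interval 16.8% to 19.996%), where even spacing would put 10% in each. The last segment held more peaks than the first in 80 of 136 genes (58.8%), fewer in 31 and the same number in 25. In long genes the share stayed between 7.92% and 9.33% over the first 7 segments. Genes of 100 to 500 kb also had most peaks at the end, with 6.88% in the first, 9.53% in the seventh and 17.7% in the last segment, and their last segment held more in 51.3%. The ratio of last to first was 2.15 in long genes and 2.58 in the shorter set, a difference that was not tested. The shorter genes were more often tied (34.5% against 18.4%), so these gene counts are not directly comparable. The rise was larger for peaks at the lowest background, from 8.57% of them in the first to 21.0% in the last segment, than for those above it, from 8.55% to 13.1%. Median fold was 12.4 in the first, 11.3 in the sixth and 13.0 in the last segment.

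Just inside the gene starts the intervals were wide and included the density further inside. Inside the first 2 kb of the 136 genes lay 3 peaks, at 1.47 per 100 kb in the first kb (95% exact Poisson interval 0.178 to 5.31) and 0.735 in the second (0.0186 to 4.10). From 2 to 5 kb inside the start it was 2.70 (1.35 to 4.82). From 100 to 200 kb inside the start the density was 1.85 peaks per 100 kb (95% exact Poisson interval 1.62 to 2.09). Upstream of the start it was 1.47 at 2 to 5 kb (0.540 to 3.20). At 10 to 20 kb upstream it was 3.68 (2.73 to 4.85), against 1.76 (1.13 to 2.63) inside. At 20 to 50 kb upstream it was 3.58 (3.02 to 4.21), against 1.86 (1.47 to 2.33) inside. Inside the genes the density was higher near the 3' end than near the start. Between 2 and 5 kb inside that end it was 7.60 (5.16 to 10.8). It was 4.19 at 10 to 20 kb and 2.49 at 100 to 200 kb from that end. Downstream of the genes it was 3.43 at 2 to 5 kb. Shorter genes of 100 to 500 kb had higher values at each of these distances from the 3' end, with 11.4 at 2 to 5 kb inside it. Across the 344 boundaries of the long genes only 1 peak straddled a boundary, the 3' end of Grip1.

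**Figure D4:**
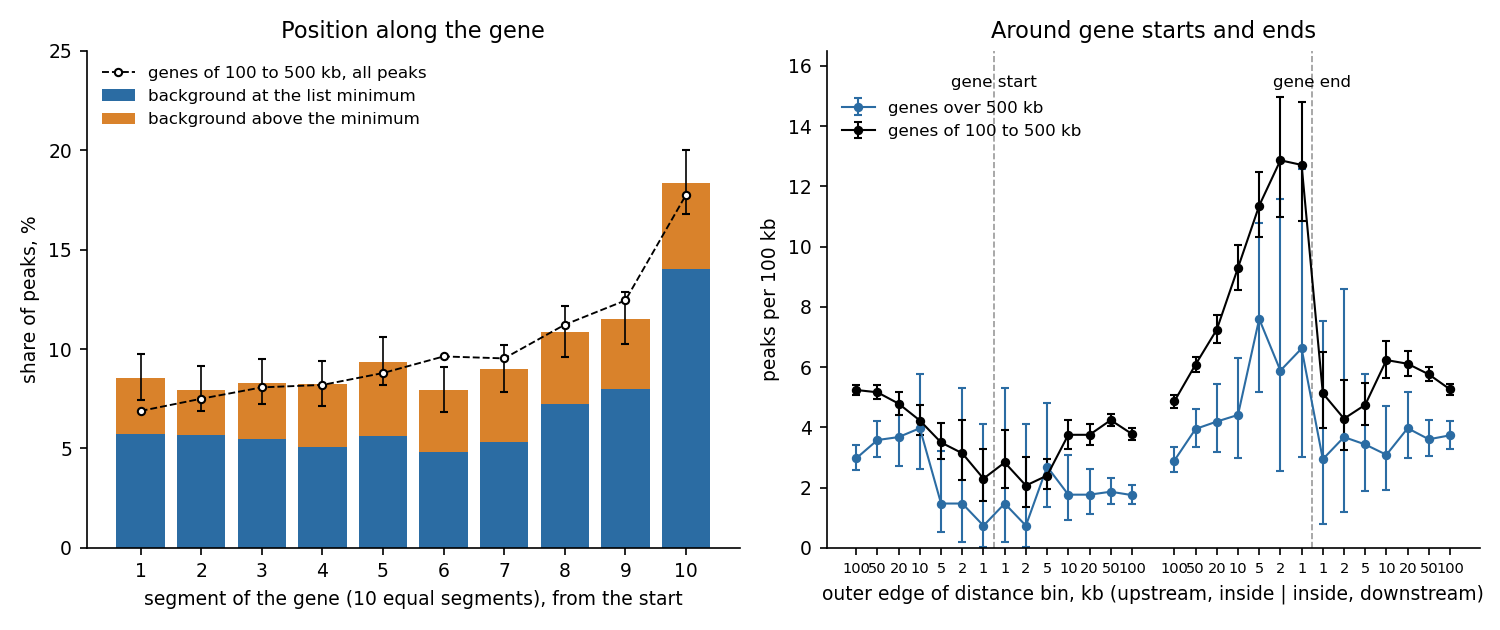
Left, share of peaks in % (vertical axis) by segment of the gene (10 equal segments) from its start (horizontal axis) in 136 genes over 500 kb, split by background, with 95% exact intervals; the dashed line gives genes of 100 to 500 kb. Right, peaks per 100 kb (vertical axis) by distance bin around gene starts and ends (horizontal axis, outer edge of each bin in kb). Bars are 95% exact Poisson intervals. Both gene sets rise toward the 3' end inside the gene and are lower just beyond it. In long genes the sides are close at 10 to 20 kb (4.19 inside, 3.97 outside).

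Single genes followed this to different degrees. Robo1, a receptor for Slit ligands, had 19 of its 32 peaks in the last segment and 2 in the first. In Pde4d the numbers were 15 of 34 and 1, and in Kalrn 12 of 36 and 2. Camta1 had 14 of 92 in the last segment and 3 in the first, with peaks spread over the whole body and no stretch above 39.6 kb without one. Macrod2, a mono-ADP-ribose hydrolase, had 11 of 28 in the last segment. St6galnac3 had 9 in either, and Atrnl1 had 9 in the first and 7 in the last. Fhit, at a known fragile site, had 1 in each. Other genes ran the opposite way. Ctnna3, an alpha-catenin, had 10 of its 37 peaks in the first and 1 in the last segment, and Ptprt had 4 and 1. Elmo1, an engulfment and migration adaptor, and Fstl5, a follistatin-like protein, had 3 in the first and 0 in the last. Without Robo1, which had most, the share in the last segment over all genes was 17.8%. No peak fell in the first segment of 46 genes and none in the last of 27. The longest stretch without a peak had a median of 205 kb over the 172 genes.

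**Figure D5:**
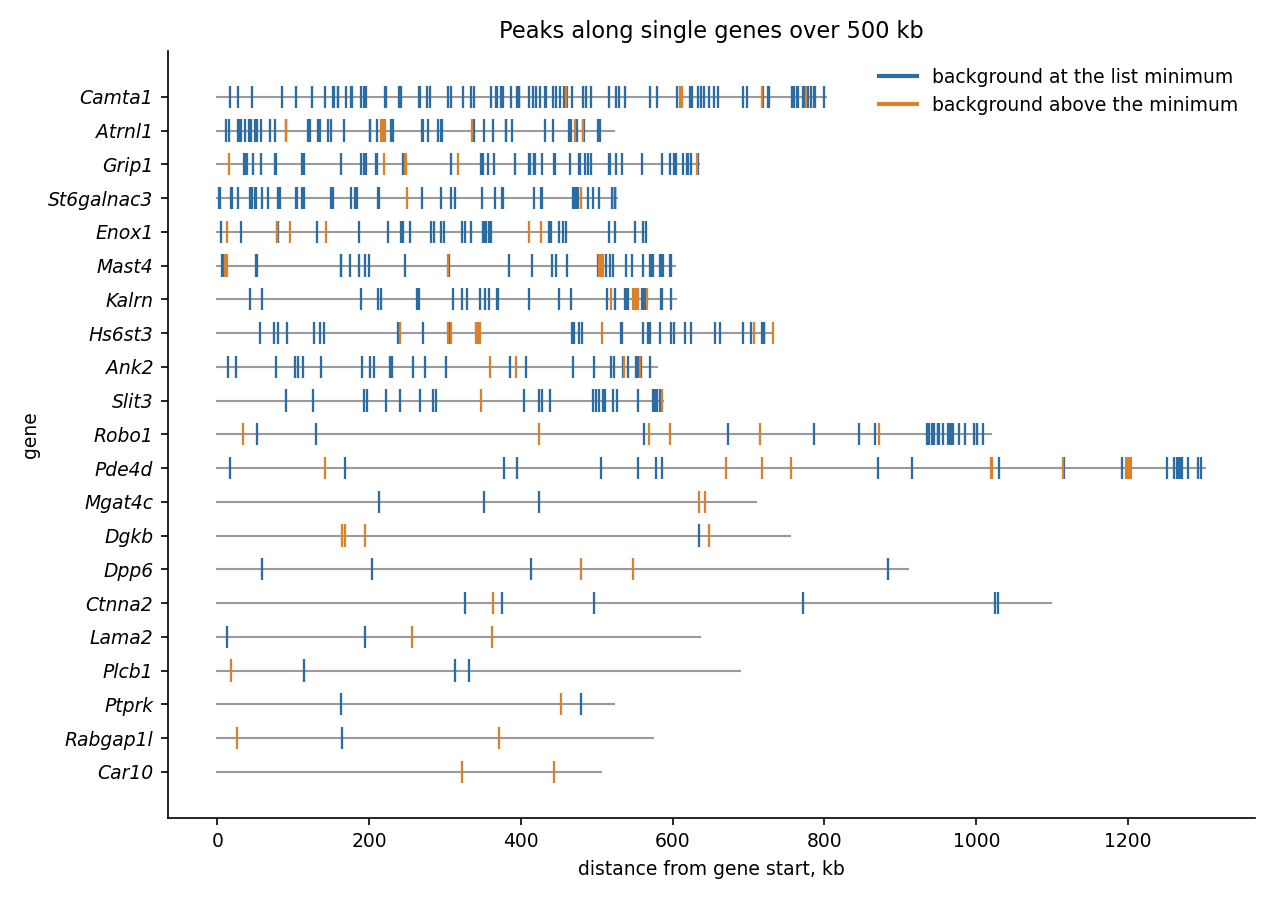
Peak midpoints (ticks) by distance from the gene start in kb (horizontal axis) along 21 genes over 500 kb (rows, grey lines to scale), with peaks at the lowest background in blue and above it in orange. Dense genes such as Camta1 carry blue peaks throughout, Robo1 and Pde4d carry them near the 3' end, and the 9 genes at the bottom hold 2 to 7 peaks each.

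By broad function, 128 of the 172 genes belonged to 1 of 7 lists, and the 44 in no list held 2.62 peaks per 100 kb. The headings fit some members only loosely. The 35 genes for cell adhesion and axon guidance held 1.72 peaks per 100 kb (median gene 1.43), from 0.574 in Ptprk to 4.599 in Slit3, and 14 of them exceeded the median long gene. The 12 genes for ion channels and their subunits held 1.38 per 100 kb (95% exact Poisson interval 1.16 to 1.64), an interval that overlaps that of the adhesion genes (1.59 to 1.85). They ran from Dpp6 to Asic2, an acid-sensing channel (2.57). The 16 genes for neurotransmitter receptors and synapse proteins held 1.998, between Csmd3 and Csmd2. The 27 signalling genes held 2.16, from Plcb1 to Mast4.

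In every list the density is lower without its densest gene, by construction, and Camta1 moved its list most. The 13 genes for transcription and RNA-binding regulators held 2.58 peaks per 100 kb, and 1.82 without Camta1. The lowest of them was Foxp2, a forkhead factor, at 0.740. The 11 matrix, proteoglycan and glycan genes held 2.62, and 2.21 without St6galnac3. They included Lama2, Gpc6, a glypican (52 peaks, 4.93 per 100 kb), and Hs6st3, a heparan sulfate sulfotransferase (42 peaks, 5.74). The 14 genes listed under cytoskeleton, polarity and membrane traffic held 2.37, with Lrba the lowest. Without Atrnl1, which fits that heading only loosely, they held 1.98. The list medians ran from 1.37 to 1.98 peaks per 100 kb, around the 1.73 of all long genes. Ppargc1a, a coactivator of mitochondrial biogenesis that spans 662 kb in this annotation, was singled out afterwards because the series concerns energy metabolism. It had 9 peaks, 1.36 per 100 kb (0.622 to 2.58), against 3.40 in its flanks.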

How the data were processed

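The series holds 6 chondrocyte MBD-seq libraries (control and cKO, 3 each) and 1 peak list. Per the submitters' processing notes, fastp, Bowtie2 and MACS2 were used with builds mm10 and GRCm38. Versions, parameters and the background library are not given in the sources used here. Per the peak names, 3 datasets were merged with Samtools. The deposited fold sets the pileup of a peak against the background the caller used, as a ratio. Each peak has a deposited −log10 p and −log10 q, and its deposited score equals 10 times the latter, cut to a whole number. Start, end and summit are positions. The lowest −log10 q was 20.004. Library depth is unknown.

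An incomplete last line was left out. The list covers 16 chromosomes, chromosome 6 only to its last peak. Gene bodies and starts came from RefSeq tables of GRCm38.p6, and 172 of 227 protein-coding genes over 500 kb were covered. Densities are peaks over the union length of genes. Pileup and background were recovered by solving fold = (pileup + 1)/(background + 1) and the Poisson p for a whole pileup (99.97% of peaks matched, within 1% of the spacing; tested on simulated peaks). For positions, 3 models nested in longer long genes were left out. Assembly gaps were not excluded. Intervals are exact Poisson or binomial, medians by order statistics (Python 3.11.15, SciPy 1.17.1).

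Named items were the 12 densest and 12 sparsest genes, the 5 with most peaks, 3 on each side of 500 kb, the 5 strongest and 5 widest peaks and the extremes of each list. One of the widest peaks is not reported here. Printed sequences, and the genes given as single cases of length, position and flanks, were chosen after their values were seen. Members and lists were chosen with earlier results of these data known. Alternatives varied peak placement, fold, q, merging, the length limit and gene models. Control and cKO were not tested against each other, since values per sample are lacking.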

Additional observations from a re-analysis of the deposited data

How the results depend on the processing

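No paired analysis was possible because samples have no values of their own in these data, and for the same reason no replicate could be left out. Placing peaks by summit or by any overlap changed none of the values recomputed, as 1 peak alone straddles a boundary (segments were not recomputed by overlap). Of 53 alternative values 29 stayed inside the interval of the main value. These include the placement values, which could hardly move. They also include the share of genes with a peak in subsets of the same genes, which could not move. The count is therefore no measure of robustness.

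Filters lower counts by construction. Peaks at or above the list's median fold gave 0.933 peaks per 100 kb, a peak in 97.7% of genes, 3.17% of chromosome peaks, a median fold of 20.5, 68.4% at the lowest background and 29.0% in the outer segments (27.2% with all peaks). A −log10 q of at least 50 gave 1.55 per 100 kb, a median fold of 14.9 and 54.1% at the lowest background. Merging within 500 bp gave 1.99 per 100 kb and 67.3%. Genes over 400 kb (276) gave 2.45 per 100 kb, 5.55% of peaks and 69.3%. Genes over 750 kb (85) gave 1.88, 2.08% and 58.6%. Without Gm and Rik models the share of peaks was 3.504%. Added after seeing the data, peaks at the lowest background alone gave 1.39 per 100 kb, a median fold of 12.3 and 29.96% in the outer segments. Those above it gave 0.743, 10.4 and 22.0%. Depth is unknown, so absence of a peak does not show absence of methylation.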
